A study of Mus musculus with 9 samples.

Results

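A set of 10 genes that regulate blood stem cells were followed in myeloid progenitors that carry the NUP98-HOXA10hd fusion (NA) and in wild-type (WT) myeloid progenitors. They were chosen by name: Mecom, Prdm16 and Mllt3, which act on chromatin, the DNA-binding factors Hlf, Erg, Sox4, Tox and Etv6, the RNA-binding protein Msi2, and Ndn, a protein that restrains growth. All 10 of these regulators were among the 37980 genes of the deposited table. RNA was sequenced from bone marrow cells in the lineage-negative, c-kit+, Sca1- gate, which holds myeloid progenitors (MPs), with 100000 cells to a sample, 4 samples of NA MPs and 5 of WT MPs. All mice were of the C57BL/6 strain, and the cells came from irradiated adult recipients 3 months after the transplantation of multipotent progenitors (MPPs) with helper bone marrow, by the labels, while the methods of the study name a later month. NA MPs were Tdtomato+ progeny of MPPs from NA LSL/+; Vav-Cre mice, in which a Cre active in blood cells opens the fusion allele. For WT MPs the CD45.2+ cells of mice given WT MPPs were taken, but elsewhere in the study it is the recipients that carry CD45.2, while progeny of the WT donor is traced by CD45.1. A CD45.2+ sort could then leave out the WT donor cells, and whether WT MPs descended from the donor, helper or host cannot be told, which bears on each WT value below. Whether a sample was 1 mouse is not stated, so the p-values describe these samples and not a spread between mice. Those from limma, the fit across all genes, also borrow the spread of other genes.

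Blood stem cells keep their identity through a small set of nuclear proteins whose genes are turned down as cells commit to a lineage. Mecom encodes the zinc finger factor EVI1 and its longer form with a PR domain, both needed for the long-term stem cell pool, and a high level of EVI1 marks a form of acute myeloid leukaemia. Prdm16 is its closest relative, Hlf and Mllt3 help stem cells self-renew, and Msi2 steers the translation of stem cell transcripts.

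Mecom was nearly 10 times higher in NA MPs than in WT MPs, the largest change by far among these genes. Hlf, Sox4, Erg and Msi2 rose between 1.38-fold and 1.59-fold, Etv6 rose by 1.13-fold, and Mllt3 fell to 0.74 of its WT level. Prdm16, Tox and Ndn were too low for the test across all genes. In such bulk samples fewer cells of a type and less RNA per cell cannot be told apart.

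The values are normalized counts, the read counts per gene scaled by the authors to a common level, and 3 reads were worth between 2.48 and 3.60 of them in a sample. The values of each sample stood for between 5557718 and 8106141 reads. In the principal components NA MP replicate 1 lay apart from the other NA samples, at 20.3 on the second component, which held 6.12% of the variance, against -8.93 to -3.01. The genes that give the fusion its name were higher in each sample labelled NA than in any labelled WT. Hoxa10 ran from 115.7 to 154.9 in NA MPs and from 5.59 to 12.0 in WT MPs, and Nup98 from 839.2 to 1025 against 566.5 to 627.6, where reads of the fusion itself may be counted in both genes. Of 12 MP genes, all tested, Kit, Mpo and 4 others did not pass the threshold, 4 were higher and 2 lower. Over all tested genes 16.9% were higher and 17.3% lower.

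The start sites of these genes differ in sequence, and 5 windows are printed for the genes whose changes are described in most depth. RefSeq (build GRCm38.p6) gave 15 windows of 300 bases, from 250 before to 50 after a start, for 9 of the 10 genes. The windows below belong to Mecom, which has a start for the long form and, far downstream, a start for EVI1, to Sox4, to Msi2 and to Mllt3, the gene that fell. Capitals mark matches on either strand to TTTATNN, the core bound by HOXA9 and HOXA10 type homeodomains, to GATAA, the core of GATA sites, or to the E-box CACGTG.

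Mecom, long form, chr3:30509710-30510009, minus strand: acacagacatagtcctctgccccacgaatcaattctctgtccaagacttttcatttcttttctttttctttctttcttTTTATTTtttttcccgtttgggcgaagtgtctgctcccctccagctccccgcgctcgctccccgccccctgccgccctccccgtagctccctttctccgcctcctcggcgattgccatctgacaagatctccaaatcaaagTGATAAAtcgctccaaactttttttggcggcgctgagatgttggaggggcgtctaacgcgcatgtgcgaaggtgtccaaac
Mecom, EVI1 form, chr3:30013155-30013454, minus strand: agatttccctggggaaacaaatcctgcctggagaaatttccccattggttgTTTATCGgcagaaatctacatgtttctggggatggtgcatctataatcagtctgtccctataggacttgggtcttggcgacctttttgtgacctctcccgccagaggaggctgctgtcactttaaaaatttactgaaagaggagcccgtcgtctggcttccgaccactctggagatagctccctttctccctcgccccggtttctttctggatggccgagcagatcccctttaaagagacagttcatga
Sox4, chr13:28953650-28953949, minus strand: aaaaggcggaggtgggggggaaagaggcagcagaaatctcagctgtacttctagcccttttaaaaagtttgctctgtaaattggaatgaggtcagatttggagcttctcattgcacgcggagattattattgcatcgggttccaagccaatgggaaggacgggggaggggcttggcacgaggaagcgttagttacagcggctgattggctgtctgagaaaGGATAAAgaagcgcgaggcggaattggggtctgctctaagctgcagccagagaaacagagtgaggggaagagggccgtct
Msi2, chr11:88718180-88718479, minus strand: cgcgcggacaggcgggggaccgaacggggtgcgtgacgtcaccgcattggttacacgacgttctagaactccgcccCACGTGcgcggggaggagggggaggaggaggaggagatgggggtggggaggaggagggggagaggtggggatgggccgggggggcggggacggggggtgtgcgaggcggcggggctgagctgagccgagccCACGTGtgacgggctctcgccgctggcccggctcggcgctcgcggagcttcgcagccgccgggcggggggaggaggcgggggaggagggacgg
Mllt3, chr4:88033358-88033657, minus strand: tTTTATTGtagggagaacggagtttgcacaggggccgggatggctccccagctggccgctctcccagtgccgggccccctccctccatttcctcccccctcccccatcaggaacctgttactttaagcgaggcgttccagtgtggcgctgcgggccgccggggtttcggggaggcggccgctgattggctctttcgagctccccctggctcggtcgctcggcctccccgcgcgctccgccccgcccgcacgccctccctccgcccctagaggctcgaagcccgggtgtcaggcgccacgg

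TTTATNN occurred in 6 of the 15 windows, those of Mecom, Mllt3, Erg, Sox4 and Etv6, and in 39.9% of all 32851 windows. GATAA occurred in 4 of the 15, in Mecom, Erg and Sox4, against 25.4% of all windows. In the Mecom windows and in Sox4 the GATAA match lies inside a TTTATNN match on the other strand, so the 2 motifs share letters there. These overlapping matches begin at position -31 from the start of the long Mecom form and at position -30 from that of Sox4. CACGTG occurred only in the 3 overlapping windows of Msi2 and in 7.15% of all windows. TGATTTAT, a paired site for PBX with HOX proteins, and CCGGAAG, an ETS core, were found in no window of these genes and in 0.977% and 8.86% of all windows. The windows also differed in base composition. G and C made up 76.0% of the printed Msi2 window, 70.3% of that of Mllt3 and 67.3% of that of Hlf, against 52.0% and 49.7% in the Mecom windows, 52.0% in Sox4 and a median of 52.7% over all windows. A match is a description of the letters and says nothing of binding.

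Mecom (ENSMUSG00000027684, chr3:29951296-30548008, minus strand) encodes the factor EVI1. Its normalized count was 178.9, 156.7, 152.5 and 156.2 in NA MP replicates 1 to 4. In WT MP replicates 1 to 5 it was 20.5, 13.7, 17.3, 17.0 and 13.05. All 4 NA samples lay far above every WT sample, and NA MP replicate 1 was the highest. The mean of 161.1 ± 12.0 (SD, n = 4) was 9.87 times that of 16.3 ± 3.03 (SD, n = 5). The log2 fold change on the scale of log2(normalized count + 1) was 3.24 (SE 0.15, 95% confidence interval 2.94 to 3.54), with an adjusted p of 3.75e-22 from limma. By the size of its rise Mecom ranked 32 among 11987 tested genes. The 630 reads of NA MPs and 83 reads of WT MPs behind these values are counts of the whole gene, so the long form and EVI1 were not separated. Its antisense neighbour Mecomos was listed at 0 in each sample.

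Prdm16 (ENSMUSG00000039410, chr4:154316125-154636873), the closest relative of Mecom, encodes a PR domain protein that preserves stem cells. It had 9.60, 14.2, 7.79 and 14.9 normalized counts in NA MPs and 7.55, 5.99, 4.08, 6.00 and 10.3 in WT MPs. The groups overlapped, with 2 of the 4 NA samples above all WT samples. The means of 11.6 ± 3.45 (SD, n = 4) and 6.77 ± 2.30 (SD, n = 5) gave p = 0.0635 in an exact two-sided permutation test over all ways to choose 4 of 9 samples, where 0.0159 is the smallest p that can be had. Only 47 and 35 reads stood behind them, so a difference of this size could not be shown at this depth.

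Mllt3 (ENSMUSG00000028496, chr4:87769925-88033364), which encodes AF9, a reader of acylated histones that recruits DOT1L and the elongation machinery, went the other way. It had 140.5, 111.2, 149.2 and 140.5 in NA MPs. In WT MPs it had 187.8, 189.1, 179.3, 193.1 and 165.9. Each NA sample lay below each WT sample, with NA MP replicate 2 the lowest. The means were 135.3 ± 16.6 (SD, n = 4) and 183.0 ± 10.8 (SD, n = 5), a log2 fold change of -0.44 (SE 0.08, interval -0.61 to -0.27, limma adjusted p = 4.70e-05).

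**Figure D1:**
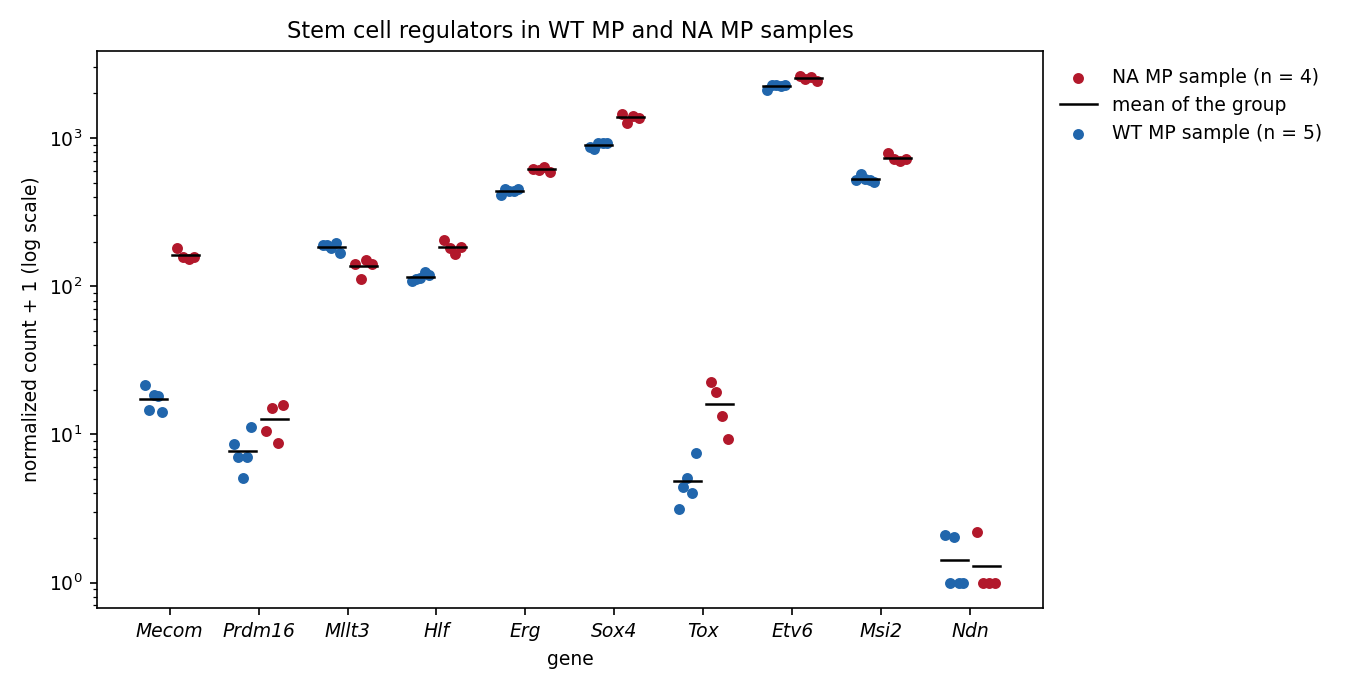
Normalized count plus 1 (log axis) of each regulator in every sample, with WT MP samples in blue, NA MP samples in red and a black line at each group's mean. Mecom shows the widest gap on this axis, from 152.5 in the lowest NA sample to 20.5 in the highest WT sample, Mllt3 is the gene whose NA samples all lie lower, and Prdm16 and Ndn overlap.

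After Mecom, Hlf (ENSMUSG00000003949, chr11:90336536-90390895), a PAR bZIP factor that keeps stem cells quiescent, rose most of the tested regulators. It had 204.1, 180.0, 164.8 and 183.5 in NA MPs and 106.8, 110.4, 113.1, 124.1 and 118.3 in WT MPs. No NA sample came down to the WT range. The means were 183.1 ± 16.2 (SD, n = 4) and 114.5 ± 6.79 (SD, n = 5). The log2 fold change was 0.67 (SE 0.08, interval 0.50 to 0.84, limma adjusted p = 1.58e-08).

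Sox4 (ENSMUSG00000076431, chr13:28948919-28953713), an HMG-box factor of progenitors and early B cells, had 1458, 1271, 1407 and 1367 in NA MPs. In WT MPs it had 875.2, 839.3, 918.4, 925.7 and 921.5. The groups were apart, and the gap of 345.2 between them was larger than the spread of either. The means were 1376 ± 79.2 (SD, n = 4) and 896.0 ± 37.7 (SD, n = 5), a log2 fold change of 0.62 (SE 0.04, limma adjusted p = 7.48e-17). In 8 of 9 samples its value was not a whole number of reads within 0.01, as happens where RSEM shares reads between genes, and its level is uncertain to that extent.

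Erg (ENSMUSG00000040732, chr16:95359169-95586593), an ETS factor that blood stem cells cannot do without, varied least among NA samples of the genes that rose. It had 620.6, 604.6, 635.8 and 591.8 in NA MPs and 410.1, 448.3, 435.1, 437.3 and 451.0 in WT MPs, with no overlap. The coefficient of variation was 3.12% and 3.72% in the 2 groups, against medians of 4.83% and 4.49% for genes of like level, those with a mean close to its own. The means of 613.2 ± 19.1 (SD, n = 4) and 436.3 ± 16.2 (SD, n = 5) gave a log2 fold change of 0.49 (SE 0.05, limma adjusted p = 1.79e-11).

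Etv6 (ENSMUSG00000030199, chr6:134035700-134270158), an ETS family repressor also called TEL that adult stem cells need, was the most abundant and changed least. It had 2617, 2502, 2561 and 2412 in NA MPs and 2120, 2266, 2263, 2256 and 2272 in WT MPs. The lowest NA sample was 140.2 above the highest WT sample. The rise of the mean from 2235 ± 64.5 (SD, n = 5) to 2523 ± 87.6 (SD, n = 4), by 12.9%, corresponded to a log2 fold change of 0.17 (SE 0.03, interval 0.11 to 0.24, limma adjusted p = 1.2e-05). The antisense Gm17089 overlaps its exons with values from 7.00 to 19.7, far below those of Etv6.

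Tox (ENSMUSG00000041272, chr4:6686353-6991557), an HMG-box factor known from T cell and innate lymphoid development, was low in both groups. It had 21.6, 18.2, 12.3 and 8.27 in NA MPs and 2.16, 3.42, 4.08, 3.00 and 6.52 in WT MPs. The groups did not overlap, but the gap was 1.74, about the worth of 2 reads. The means of 15.1 ± 5.97 (SD, n = 4) and 3.84 ± 1.66 (SD, n = 5) rested on 57 and 20 reads, with p = 0.0159 in the exact two-sided permutation test, the smallest it allows. In a fit without the filter on low values the log2 fold change was 1.71 with an adjusted p of 5.19e-05 from limma, while that of Prdm16 was 0.70 with 0.104. Gm11802, antisense to Tox, had 5 reads in NA MPs and 0 in WT MPs.

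Msi2 (ENSMUSG00000069769, chr11:88339382-88718513) is the 1 RNA-binding protein of the set. It had 795.9, 720.9, 693.6 and 715.8 in NA MPs and 522.3, 573.3, 526.7, 523.3 and 501.3 in WT MPs. All NA samples were higher, and replicate 1 was again at the top. The means were 731.6 ± 44.5 (SD, n = 4) and 529.4 ± 26.5 (SD, n = 5). The log2 fold change was 0.47 (SE 0.05, interval 0.37 to 0.56, limma adjusted p = 5.88e-11). Ndn (ENSMUSG00000033585, chr7:62346569-62350262), which encodes necdin, a paternally expressed protein that holds stem cells quiescent, had 1 read in all NA MPs and 2 in all WT MPs. It was not detectable above the floor of 3 reads in any sample, and no fold is given.

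**Figure D2:**
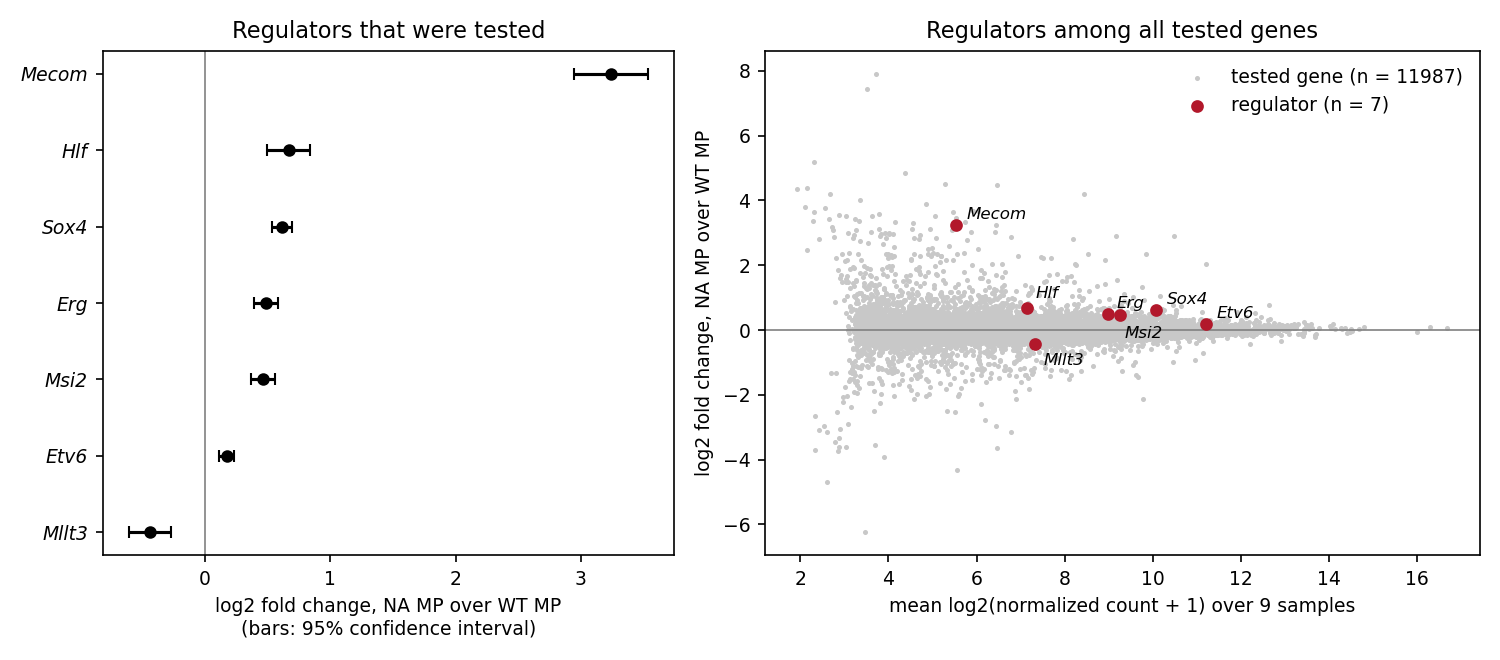
Left, the log2 fold change (NA MP over WT MP) of the 7 tested regulators with 95% confidence intervals. Right, the log2 fold change against the mean log2(normalized count + 1) for all 11987 tested genes in grey with the same 7 in red. Mecom, at 3.24, stands outside the bulk of genes of its level, while Etv6, at 0.17, lies near 0.

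In counts, 7 of the 10 regulators passed the filter, with a value of at least 10 in at least 4 samples. These 7 had values over 10 in all 9 samples, so none passed through 1 group alone. All 7 differed at an adjusted p under 0.05, against 34.3% of all tested genes. Of these 6 were higher in NA MPs, against 16.9% of all tested genes, and 1 was lower, against 17.3%. The 7 also had no overlap between groups, which held for 26.3% of all tested genes. Their median log2 fold change was 0.49, beside -0.01 for all tested genes. The regulators were chosen with earlier results of these data known, so these contrasts are a description and no test of the set. Of the 7 tested regulators only Mecom changed more than 2-fold, as did 307 of all tested genes upwards and 181 downwards. In a test against a change of 1.5-fold, Mecom alone remained of the 7.

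The spread among samples was uneven. Mecom had a coefficient of variation of 7.45% in NA MPs and 18.6% in WT MPs, where few reads were counted. Genes of like mean level had medians of 10.9% and 10.4%. Likeness was taken on the mean over all 9 samples, which for Mecom lies between its group means of 161.1 and 16.3. These medians are thus no yardstick for Mecom in either group. Mllt3 varied more in NA MPs, at 12.3%, than in WT MPs, at 5.92%, with medians of 8.15% and 7.42% for genes of like level. Msi2 was at 6.08% and 5.004% against 4.50% and 4.19%, and Etv6 at 3.47% and 2.88% against 3.18% and 2.74%.

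Per kilobase of exon, the order of the levels was nearly shared. In NA MPs it ran from Etv6 (421.7 normalized counts per kilobase) over Sox4 (286.9), Erg (176.9), Msi2 (70.3) and Hlf (27.4) to Mecom (13.0) and Mllt3 (11.3), then Tox (1.98), Prdm16 (1.245) and Ndn (0.081). The samples of Mecom and Mllt3 overlapped each other, as did those of Tox and Prdm16. In WT MPs Mllt3 (15.3) followed Hlf (17.1) with overlap, and Mecom (1.31) lay far below it, overlapping Prdm16 (0.73). The rise thus took Mecom from the range of the nearly silent genes to that of Mllt3, and left it below the 5 most abundant ones.

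NA MP replicate 1, the sample that stood apart, was the highest NA sample for Mecom, Hlf, Msi2, Sox4, Tox, Etv6 and Ndn. Without it the 7 tested regulators remained past the threshold, and the log2 fold changes were 3.19 for Mecom, 0.62 for Hlf, 0.59 for Sox4, 0.48 for Erg, 0.42 for Msi2, 0.16 for Etv6 and -0.46 for Mllt3. The mean of Mecom was then 155.1 ± 2.29 (SD, n = 3). Tox still did not overlap, with a mean of 12.9 ± 4.999 (SD, n = 3) and p = 0.0179 in an exact permutation test over 56 ways, the smallest it allows. This p is the share of ways with an absolute difference at least as large. The tests on all 9 samples doubled 1 tail instead, so the p-values are not on the same footing.

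The genes most like Mecom over the 9 samples, by the root mean square difference of mean-centred log2 values, were Auts2 at 0.27, Havcr2 at 0.27 and Pbx3 at 0.28. Auts2 had means of 246.2 ± 20.8 in NA MPs (SD, n = 4) and 19.1 ± 5.41 in WT MPs (SD, n = 5). Pbx3, a cofactor of HOX proteins, had 273.0 ± 23.8 and 33.2 ± 4.99. Havcr2, which encodes the surface receptor TIM-3, had 54.5 ± 9.34 and 3.80 ± 1.77. They were picked for this likeness, so the step between groups that they share with Mecom is no finding, and Havcr2 was near the floor of 3 reads in WT MPs.

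Of 24 other stem cell regulators, 20 were tested, of which 9 were higher, 3 lower and 8 not past the threshold. Among all tested genes 16.9% were higher and 17.3% lower. The regulators of this list had a median of 0.04 on the log2 scale, beside -0.01 for all tested genes. Hoxb5, a marker of long-term stem cells, had 47.3 ± 7.73 in NA MPs (SD, n = 4) and 2.18 ± 1.15 in WT MPs (SD, n = 5), a log2 fold change of 3.997. In WT MPs it had 11 reads in all and 3.24 at most, near the floor. It thus passed the filter through NA MPs alone, and its fold is uncertain. Mycn rose by 1.10 on the log2 scale, while Hmga2, a growth regulator of foetal stem cells, fell by 1.05 and Tal1, the partner of GATA factors, fell by 0.53. Hmga2 needed WT MPs to pass the filter, with 5.06 to 13.2 in NA MPs and 11.9 to 22.3 in WT MPs. Its groups overlapped, and its fold is uncertain. The antisense of Hmga2, 1700006J14Rik, had means of 45.9 in NA MPs and 73.4 in WT MPs, and reads of shared exons cannot be told apart. Meis1, a cofactor of HOX proteins, had 268.2 ± 26.2 in NA MPs (SD, n = 4) against 266.5 ± 21.5 in WT MPs (SD, n = 5), so the difference was smaller than the spread. Sox17 was listed at 0 in all samples, and Lin28b, Nkx2-3 and Tcf15 failed the filter. Without NA MP replicate 1, 11 of the list differed in place of 12.

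Of 24 relatives of these proteins in the table, 17 were tested, of which 3 were higher, 4 lower and 10 not past the threshold, with a median of 0.01. The 7 called of 17 are near the share of 34.3% called among all tested genes. Tef and Nfil3, bZIP factors akin to Hlf, rose by 0.43 and 0.41 on the log2 scale. Maged1, a MAGE family protein akin to necdin, fell by 0.93, and Sox12, next of kin to Sox4, fell by 0.47. Msi1, Sox11 and Magel2 were listed at 0, and Prdm1, Prdm8, Tox2 and Tox3 failed the filter. In the imprinted region around Ndn, Ube3a fell by 0.24 on the log2 scale, Peg12 (-0.05) missed the threshold, Mkrn3 failed the filter and Magel2 was at 0. Of 12 imprinted growth genes only Grb10 and Gnas were tested, and Grb10, an adaptor that restrains insulin signalling, fell by 1.83 from 257.2 ± 19.6 in WT MPs (SD, n = 5) to 71.7 ± 2.78 in NA MPs (SD, n = 4).

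Transcripts of partner proteins differed by small amounts between the groups. The share of all tested genes past the threshold was 34.3%, with 16.9% higher and 17.3% lower. Of 11 corepressors that EVI1 and PRDM16 are known to recruit, 1 was higher (Ehmt2, 0.11), 2 were lower (Ncor1 at -0.14 and Hdac2 at -0.13 in log2 fold change) and the other 8 missed the threshold. The median over the 11 was -0.08. Of 14 elongation factors that work with AF9, Cbx8 (0.34) and Ctr9 (0.10) were higher, Dot1l (-0.17), the histone methyltransferase that AF9 recruits, was lower, and 11 did not pass, with a median of -0.02.

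Of 7 reported EVI1 targets, 4 were higher, 0 lower and 3 not past the threshold, where 16.9% of all tested genes were higher and 17.3% lower. Their median log2 fold change was 0.16. Angpt1, a ligand of the TIE2 receptor, was at 1115 ± 156.4 in NA MPs (SD, n = 4) and 546.5 ± 38.1 in WT MPs (SD, n = 5), a log2 fold change of 1.02. The adhesion receptor Adgrg1 rose by 0.56, Gata2 by 0.43 and Itga6 by 0.16, whereas Cebpa (-0.05), which EVI1 is known to repress, did not pass. Of 6 reported MSI2 targets, Hoxa9 (2.03) and Ikzf2 (0.35) were higher, Myc (-0.11) was lower, and 3 did not pass. Hoxa9 is itself a HOX gene and Gata2 stands in the list of stem cell regulators too, so these lists are not independent.

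**Figure D3:**
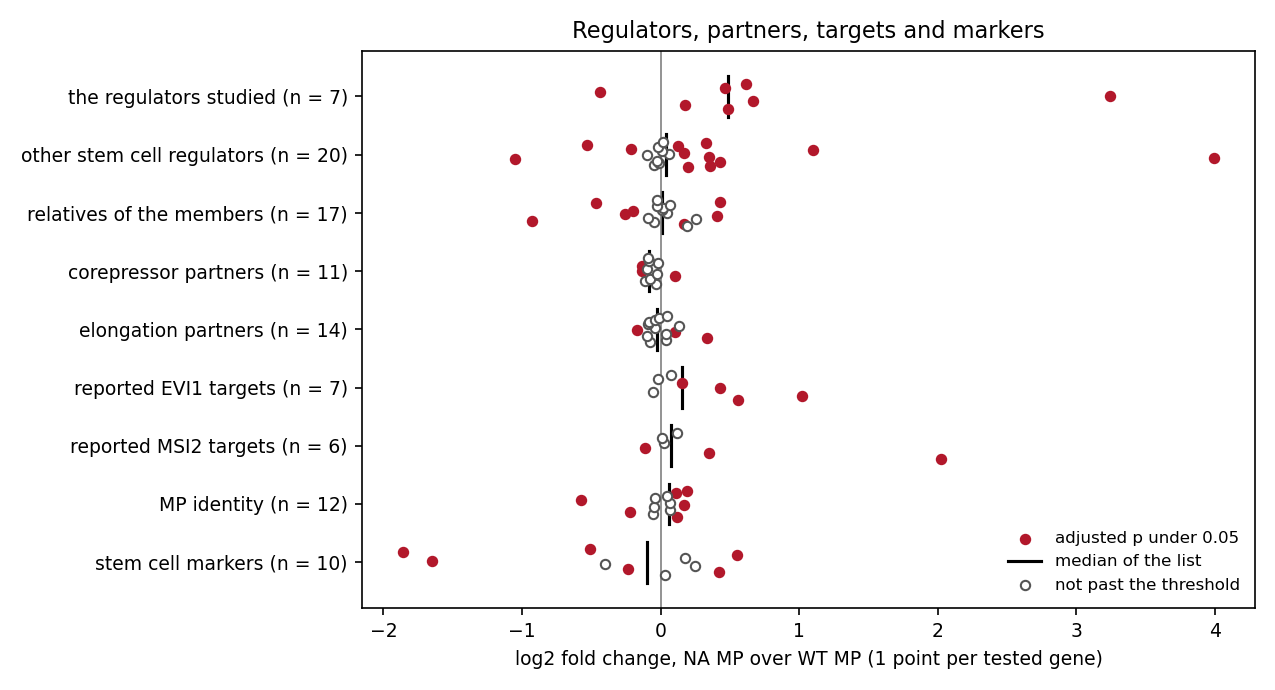
Log2 fold change (NA MP over WT MP) of every tested gene in 9 lists, with filled points at an adjusted p under 0.05, open points for the others and a black bar at each list's median. The regulators studied have a median of 0.49, and the corepressor and elongation partners have medians of -0.08 and -0.02. Lists of markers of other cells and of immediate early genes are not drawn here.

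Most genes on a list of stem cell markers did not rise with Mecom. Of 15, 10 were tested, with 2 higher (Slamf1 at 0.55 and Flt3 at 0.42), 4 lower and 4 not past the threshold. Among the lower were Tek at -1.86, Vwf at -0.51 and Ifitm1 at -0.23. For all tested genes the shares were 16.9% higher and 17.3% lower. Tek, the receptor of Angpt1, went from 40.2 ± 6.63 in WT MPs (SD, n = 5) to 10.5 ± 2.89 in NA MPs (SD, n = 4). It needed WT MPs to pass the filter, with 7.44 to 14.4 in NA MPs. Fgd5, a reporter gene for stem cells, was at 0 in all NA samples and at 2.57 at most in WT samples. Ly6a, which encodes the Sca1 protein the gate excludes, was at 21.4 ± 2.80 in NA MPs (SD, n = 4) and 18.3 ± 5.17 in WT MPs (SD, n = 5). The summed markers ran from 1022 to 1173 in NA MPs and from 1107 to 1182 in WT MPs, and the 2 ranges overlapped. Flt3, which rose, encodes CD135, by which the study sorted MPPs, so it is no marker of stem cells alone. It was the largest part of both sums. It had 483.6 ± 42.6 in NA MPs (SD, n = 4) and 360.8 ± 30.8 in WT MPs (SD, n = 5). The sums are thus weighted to this gene, and their overlap does not show the lower markers apart.

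Markers of other cells moved between the groups along with the regulators. The counts below stand beside 16.9% of all tested genes higher and 17.3% lower. All 12 pro-B cell markers were higher in NA MPs, with a median log2 fold change of 3.32, and none was at 0. Their sums were 1460 to 2574 against 373.8 to 403.0. Pax5, Vpreb3 and Il7r had at most 4.28, 9.17 and 6.52 in WT samples, so they passed the filter through NA MPs alone. The lineage gate of the study holds B220, which most pro-B cells carry. Mast cell and basophil markers were higher for 6 of the 7 tested, with sums of 2709 to 3233 against 1450 to 1584, and Tpsb2 was at or under the floor in each sample. Of 11 erythroid markers 9 were lower, with sums of 5247 to 6669 against 9484 to 10520. Of 7 megakaryocyte markers 1 was higher and 2 lower, and of the T cell markers only Lck was tested and higher, with Cd3e and Cd3g at 0. Immediate early genes, which rise with handling and stress of cells, were higher for 14 of the 16 tested, with sums of 16280 to 32630 against 5632 to 8875.

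Within NA MPs the sums differed in which sample was highest. NA MP replicate 1 had the lowest pro-B sum, at 1460, and the highest Mecom, Hlf and Sox4 values. The immediate early sum was lowest in replicate 2, at 16280, and highest in replicate 4, at 32630, while Mecom was 156.7 and 156.2 there. The mast and basophil sum was highest in replicate 1, at 3233, and so was the megakaryocyte sum, at 1610, as were Mecom, Hlf, Msi2, Sox4 and Etv6. The stem cell marker sum was also highest in replicate 1, at 1173 against 1022 to 1070 in the other NA samples. The sum of the MP genes was lowest in replicate 1, at 166700 against 173000 to 183300. The part of cell composition or handling in the changes of these genes was not tested.

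**Figure D4:**
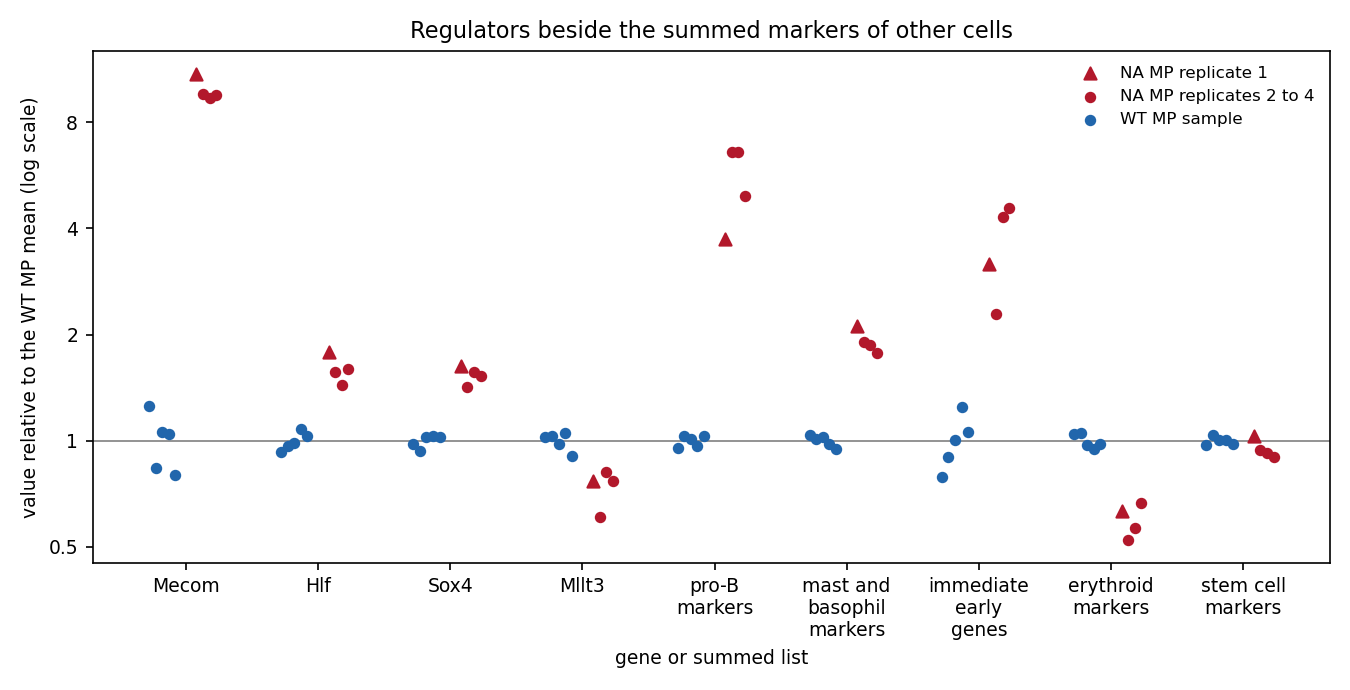
Value of 4 regulators and of 5 summed lists in each sample relative to the mean of WT MPs (log axis), with WT MP samples in blue, NA MP samples in red and NA MP replicate 1 as a triangle. Mecom is close together in replicates 2 to 4, from 152.5 to 156.7, while the immediate early sum spreads from 16280 to 32630 among NA samples. The stem cell marker sums, of which Flt3, also a marker of MPPs, is the largest part, overlap between the groups.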

How the data were processed

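The deposited table gave 1 value per Ensembl gene in each of 9 samples. Per the labels, the authors used bcl2fastq, RSEM and DESeq2 with the mm10 genome; versions, annotation and use of strand are not given in the sources used here. Although named as raw, the deposited values are a signal already scaled between samples: in each sample 97.2% to 97.6% of values above 0 were whole multiples, within 0.01, of 1 step, taken as the value of 1 read, and totals ran from 6602851 to 6734284. A test on counts had been planned and was replaced by one that fits scaled values. In R 4.3.3, limma 3.58.1 (trended, robust) compared log2(value + 1) between groups for the 11987 genes with a value of at least 10 in at least 4 samples, with Benjamini-Hochberg adjustment at 0.05. On this scale the change of low genes is understated. Data simulated for this comparison, with 200 of 11987 genes changed, returned 93.5% of these, with 5.56% of calls false. Single values were compared by exact permutation tests in scipy 1.17.1, which doubles the smaller tail. Without NA MP replicate 1 the share of absolute differences at least as large was counted directly. Reads without molecular identifiers are not independent molecules, so floors of 3 reads cover counting error only.

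Symbols matched 32916 of 37980 genes; Etv7, Snrpn, Snurf and Cyr61 were listed but not matched. Coordinates and exon lengths came from GENCODE M21 (GRCm38). The kit does not mark strand, so reads of a gene and an overlapping antisense gene cannot be told apart. Of the regulators, this touches Mecom, Prdm16, Sox4, Tox and Etv6. B230104I21Rik and Gm26735, antisense to Prdm16 and Sox4, were not analysed here. Samples of a group differed by more than the sampling of reads, which gives a chi-square over degrees of freedom near 1. This ratio was 1.62 to 2.83 between NA MPs and 1.20 to 1.70 between WT MPs. The genes and lists were chosen with earlier results of these data known. Named are the 10 regulators, up to 4 changed genes with the largest change of each list together with its genes that were not called where the list is accounted for, the 3 genes most like Mecom, and Nup98 and Hoxa10. Meis1, Kit, Mpo, Flt3, Ifitm1, Ly6a and Cebpa were named after their values were seen. A few genes of the lists are counted but not reported by name. Replicate numbers 1 to 4 occur in both groups and did not pair the samples.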

Additional observations from a re-analysis of the deposited data

Results flagged for a closer look

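Of 36 sets of values, those of the 10 regulators and of 8 summed lists in each group, 3 held a sample far from the others by Dixon's test at its 95% level, where chance gives about 1 in 20, or 1.8 sets. Mecom in NA MP replicate 1 was 178.9 against 152.5 to 156.7 in the other NA samples. Etv6 in WT MP replicate 1 was 2120 against 2256 to 2272 in the other WT samples, and still lay below each NA sample. Ndn in NA MP replicate 1 was 1.2, the value of 1 read, against 0 in the others.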

How the results depend on the processing

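The count of changed genes was 4107 and was within 1.5 times of this in 20 of 21 alternatives, as were the 7 changed regulators and the 12 changed other regulators. In the test against a change of 1.5-fold, 366 genes, 1 of the 7 regulators (Mecom) and 2 other stem cell regulators were called, since it asks for a larger change. Hlf, Sox4, Erg, Msi2, Etv6 and Mllt3 had an adjusted p of 1 in it. No log2 fold change of a tested regulator turned its sign, and that of Mecom ran from 2.97 to 3.32 over the 21 alternatives. Leaving out 1 sample gave 3549 to 3937 changed genes and 11 to 14 changed other regulators. No overlap between groups was seen for 7 regulators in the main count and for 8 without the filter, Tox being the eighth. Pseudocounts of 0.25 and 5 and a fit without a trend were chosen after seeing the data. Without the trend the limma adjusted p of the 7 tested regulators ran from 8.35e-07 for Mecom to 0.0107 for Etv6. These values were larger than in the main fit.

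With the replicate block on the 8 samples that share a number, 3664 genes, 7 regulators and 12 other regulators were called. Same-numbered samples had correlations of deviations from -0.02 to 0.06, and 1 NA sample correlated best with its own number. DESeq2 and the alternative on rounding were not run, as the values are not counts. At this depth Prdm16, Tox and Ndn, with 18 reads at most in a sample, could not be compared as firmly as the others.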
